A study of Bos taurus with 8 samples.

Results

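Imprinted growth genes were examined in single-cell preadipocyte clones of cattle. 10 genes were chosen by name, *H19*, *MEG3*, *PEG3*, *PEG10*, *MEST*, *CDKN1C*, *GRB10*, *PLAGL1*, *NDN* and *NNAT*, as the rows of the count table that carry these symbols. 6 of the 10 were found among 18871 named genes (*H19*, *GRB10*, *PLAGL1*, *PEG3*, *PEG10* and *NDN*), and all 6 reached the sum of 20 counts over the 8 clones that was required for testing, as 18339 genes did. *MEST*, *CDKN1C*, *NNAT* and *MEG3* were not analysed here. A row named *GTL2*, which RefSeq lists as another name of *MEG3*, is described beside the members and not counted with them, because its deposited length of 21940 bases is longer than the 18230 bases that RefSeq gives the whole *MEG3* gene.

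The study asked whether preadipocytes from intramuscular and subcutaneous fat differ in gene expression. 4 clones came from the stromal vascular fraction of intramuscular fat (IMF1 to IMF4) and 4 from that of subcutaneous fat (SF1 to SF4) of adult, male Angus cross breed steers, which had all been finished on a high-energy diet, with no genetic change named for either group. Each clone is the progeny of 1 cell picked by limiting dilution, and the clones sequenced were selected for fast growth, adipogenic capacity and fibroblast-like shape, so they do not sample either depot evenly. The methods of the study collect growing clones for RNA before adipogenic induction, whereas the design text places the induction before sequencing, and this difference was not settled here. Per the methods, each clone came from a stromal vascular fraction prepared individually. The sources used here do not say which IMF and SF clones share a steer, and p-values measure the spread between clones.

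Imprinted genes are read mainly from the maternal or the paternal copy, depending on a methylation mark laid down in the germ line. Many of them sit in clusters that share such a mark, and many set fetal and postnatal growth. *H19* and *IGF2* are the classic reciprocal pair, with *H19*, a noncoding RNA, read from the maternal copy and *IGF2*, a growth factor, from the paternal copy. *H19* is abundant in the embryo and falls after birth in most tissues, with skeletal muscle as a known exception. The counts here add both alleles, so parental origin was not measured.

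Total counts per clone lay between 19654917 and 29308882. Levels are given in CPM, the count of a gene per 1000000 counts of the library, with library sizes scaled by the trimmed mean of M values (TMM), as mean ± SD over 4 clones. A gene was past the threshold when edgeR's quasi-likelihood test gave an adjusted p (Benjamini-Hochberg over all genes tested) under 0.05 and its log2 fold change was 1 or more in size. All 6 stromal markers listed were measured in both groups, with a summed level of 21177 to 22197 CPM in IMF against 35546 to 39777 in SF. Most of that sum was *COL1A1* (12372 against 30090 CPM), whereas *PDGFRA* was higher in IMF by adjusted p alone (184 against 131 CPM, adjusted p = 0.0214). Of the marker lists for other cell types, skeletal muscle (8 of 8 genes, *MYOD1*, *MYOG*, *MYF5*, *CDH15*, *ITGA7*, *DES*, *ACTA1* and *MYH3*) and endothelium (11 of 11, *PECAM1*, *CDH5*, *KDR*, *TIE1*, *TEK*, *SELE*, *SELP*, *CD93*, *VWF*, *EMCN* and *ERG*) were past the threshold and higher in IMF, with summed levels of 762 to 881 CPM against 0.751 to 31.4 CPM for muscle and 317 to 342 CPM against 2.72 to 4.40 CPM for endothelium. 4 of the 8 muscle genes, *MYOD1* and *MYOG* among them, and 6 of the 11 endothelial genes had at most 3 counts in every SF clone. Over all genes tested, 4.78% were past the threshold and higher in IMF. The paper had already reported *MYOD1*, *MYOG*, *MYH3*, *SELE*, *SELP* and *CD93* as higher in IMF from these data, so the tallies of these 2 lists are not independent of that result. In leukocyte markers *CD14* was higher and *CD3E* lower, in adipocyte markers *FABP4* was higher, in stromal markers *THY1* and *COL1A1* were lower, and in pericyte and smooth muscle markers *MYH11* was higher and *CSPG4* and *ACTA2* lower in IMF.

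1 of the 6 members, *H19*, was past the threshold and higher in IMF, and 0 were lower. Over all genes tested, 8.82% were past the threshold, 4.78% higher and 4.04% lower in IMF. 2 of the 6, *H19* and *GRB10*, had an adjusted p under 0.05 whatever the fold, against 25.8% of all genes, and 3 of the 6 had an unadjusted p under 0.05, against 37.9% of all genes. In 3 of the 6 (*H19*, *GRB10* and *PLAGL1*) the IMF and SF clones did not overlap, against 32.1% of all genes. The median log2 fold change of the 6 was 0.03, beside −0.03 over all genes.

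**Figure D1:**
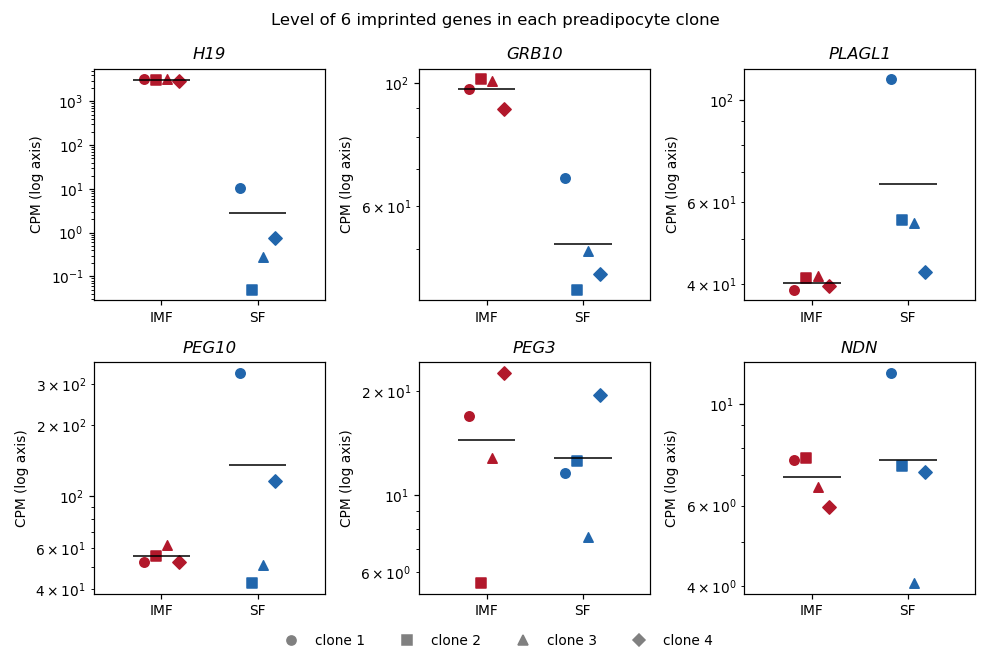
CPM of the 6 imprinted genes in each clone, on log axes that differ between panels, with IMF clones in red, SF clones in blue, 1 marker shape for each clone number and a line at the mean of 4 clones. *H19* lies near 3125 CPM in the IMF clones and at or under 10.4 CPM in the SF clones, and SF1 is the highest SF clone in every panel other than that of *PEG3*.

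*H19* differed most. This RNA, annotated by RefSeq as a lncRNA at chr29:49510998-49513370 of ARS-UCD2.0, had 67370, 96608, 70906 and 60800 counts in IMF1 to IMF4 and 202, 1, 7 and 14 counts in SF1 to SF4. The IMF clones were all high and nearly level, and the SF clones were all low. In IMF its level was 3125 ± 157 CPM (SD, n = 4), which made it between the 22nd and the 28th most abundant gene of each clone and took 0.294% to 0.352% of all counts. In SF its level was 2.87 ± 5.01 CPM (SD, n = 4), and its rank lay between 9034 and 17664 of 18339 genes. The single count in SF2 lies under the 3 counts, or 0.150 CPM, taken as the floor of that clone. The log2 fold change was 10.10 (SE 1.46, 95% interval 6.75 to 13.45, adjusted p = 0.00162), and *H19* was past the threshold in all 20 alternative analyses. SF1 held most of the SF signal, with 10.4 CPM against 0.369 ± 0.368 CPM (SD, n = 3) in the other SF clones, and even there the level was 301-fold under the IMF mean. Without SF1 the log2 fold change was 13.08.

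The skeletal muscle and endothelial markers moved with *H19* between the groups, and their part in the difference was not tested. In bulk RNA, fewer cells that express a gene and less RNA per cell cannot be told apart. Within SF, the summed muscle marker level was 19.7, 0.751, 9.62 and 31.4 CPM in SF1 to SF4, beside 10.4, 0.0501, 0.284 and 0.771 CPM of *H19*. *DES* and *ITGA7* made up nearly all of that muscle sum in SF1, SF3 and SF4, with *MYOD1* and *MYOG* at 0 counts in every SF clone. The summed endothelial level was 2.72, 4.40, 3.98 and 3.09 CPM, lowest in SF1, where *H19* was highest. *VWF* was the largest part of that endothelial sum in every SF clone (1.85, 3.00, 2.60 and 1.49 CPM). As 6 of the 11 genes had at most 3 counts in every SF clone, the order of these low sums says little. The 3 genes nearest to *H19* in profile over the 8 clones, of 13549 with at least 1 CPM and a RefSeq entry, were *ACTC1*, an actin of striated muscle, *SELP*, the adhesion receptor P-selectin, and *MYOD1*, the muscle determination factor. Their root mean squared differences from *H19*, on centred log2 CPM, were 1.56, 1.60 and 1.72. All 3 were high in IMF, at 172 ± 13.4, 148 ± 4.30 and 162 ± 12.7 CPM (SD, n = 4), and had at most 9 counts in any SF clone.

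*IGF2*, which RefSeq places 88.5 kb from *H19* on chromosome 29, was also higher in IMF. It had 529, 760, 587 and 480 counts in IMF1 to IMF4 and 99, 4, 0 and 2 counts in SF1 to SF4, so the groups did not overlap and SF1 again stood above the other SF clones. The levels were 24.9 ± 1.57 and 1.35 ± 2.49 CPM (SD, n = 4 each), with a log2 fold change of 4.23 (SE 1.08, adjusted p = 0.0213). Without SF1 the log2 fold change was 7.93. Leaving out IMF3 took *IGF2* over the threshold of adjusted p, to 0.0562, with adjusted p between 2.07e-05 and 0.132 over all alternatives. Per length of gene, in TPM (transcripts scaled by length and library), *H19* exceeded *IGF2* by 338-fold to 356-fold in the IMF clones and by 5.71-fold in SF1. The other 3 SF clones had 14 counts or fewer of either gene, too few for a ratio to be read.

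**Figure D2:**
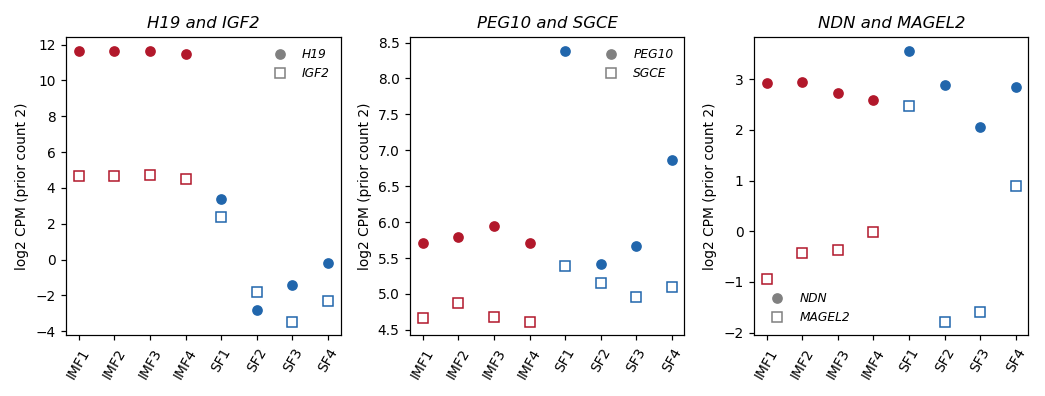
Log2 CPM (prior count 2) in each clone of 3 members (filled circles) and a gene beside each in the same imprinted domain (open squares), with IMF clones in red and SF clones in blue. *H19* and *IGF2* are both high in the 4 IMF clones, and SF1 is the highest SF clone of all 6 genes plotted.

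The other 7 genes of the *H19* and *CDKN1C* region with a usable row did not pass the test. *PHLDA2*, *KCNQ1*, *SLC22A18*, *TSSC4*, *OSBPL5*, *TSPAN32* and *NAP1L4* had adjusted p between 0.147 and 0.760 and log2 fold changes between −1.22 and 1.57. Without IMF4 *TSPAN32* was past the threshold, at −1.92 with an adjusted p of 0.0242, beside 0.147 with all clones. *PHLDA2*, at 1.57 with all clones, was 0.93 without IMF3 and 2.07 without SF4, and it passed in neither. *NAP1L4*, which codes for a histone chaperone, had 85.1 ± 2.28 CPM in IMF against 82.2 ± 5.31 in SF (SD, n = 4). The row named *ASCL2* had a log2 fold change of −0.32 (adjusted p = 0.161), but its deposited length of 57251 bases is far above the 1876 bases of the gene in RefSeq, so the row is not read as that gene here.

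The noncoding RNA *GTL2* had 2530, 2137, 760 and 2070 counts in IMF1 to IMF4 and 1718, 1338, 990 and 1406 counts in SF1 to SF4. The groups overlapped, and IMF3 was the lowest of all 8 clones. This gave a log2 fold change of 0.25 (SE 0.38, 95% interval −0.62 to 1.11, adjusted p = 0.677), which became −0.01 without IMF1. *DLK1*, the growth regulator and preadipocyte marker of the same cluster, had 1.29 ± 1.49 and 0.685 ± 0.340 CPM in IMF and SF (SD, n = 4), with between 0 and 66 counts a clone. All 8 of its counts were even, as were those of *PLAG1*, a relative of *PLAGL1*. Of the counts of *PEG3* only the 251 of SF2 was odd. Among the 14333 genes with at least 10 counts in every clone, which leaves *DLK1* and *PLAG1* out, 339 had 8 even counts. If odd and even counts were equally common, 56 would be expected, and 0 of the members had 8 even counts.

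*GRB10*, an adaptor that binds the insulin and IGF1 receptors and dampens their signal, was higher in IMF with a smaller and more even difference. Its counts were 2036, 3111, 2227 and 1885 in IMF1 to IMF4 and 1312, 845, 1225 and 818 in SF1 to SF4. In CPM, the lowest IMF clone (89.7) lay above the highest SF clone (67.3). The levels were 97.5 ± 5.50 CPM (IMF) against 51.1 ± 11.2 (SF) (SD, n = 4), a 1.91-fold difference. The log2 fold change of 0.93 (SE 0.14, adjusted p = 0.00222) fell just under the fold threshold, and it passed at 1.09 without SF1 and at 1.08 with library sizes taken from total counts alone, a scaling that also moved the median of all genes from −0.03 to 0.12. The adjusted p was under 0.05 in 19 of 20 alternatives, between 1.47e-07 and 0.0117 apart from the test against a fold of 2, where it was 1.00.

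The receptors to which GRB10 binds were listed with it. *IGF1R* had 71.1 ± 1.73 CPM in IMF against 138 ± 19.8 in SF (SD, n = 4), with a log2 fold change of −0.96 (adjusted p = 0.000455), and *INSR* had 16.3 ± 0.630 and 18.3 ± 2.67 CPM (adjusted p = 0.276). *COBL*, an actin nucleator 219 kb from *GRB10* on chromosome 4, was past the threshold. Its counts in IMF1 to IMF4 were 88, 110, 73 and 49, beside 1, 1, 0 and 0 in SF1 to SF4. The ratio of the pooled levels, 3.39 to 0.0243 CPM, was 139 with an exact counting interval of 38.2 to 1155, which covers counting error only.

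*PLAGL1*, a zinc finger transcription factor that restrains the cell cycle, was level in IMF and uneven in SF. It had 811, 1258, 916 and 832 counts in IMF1 to IMF4 and 2160, 1099, 1334 and 772 counts in SF1 to SF4. In CPM the groups did not overlap, with 38.9 to 41.5 in IMF and 42.5 to 111 in SF, but IMF2 and IMF3 lay close to SF4, the lowest SF clone. The log2 fold change was −0.70 (SE 0.27, 95% interval −1.32 to −0.09) and missed the threshold with an adjusted p of 0.0923. Over the alternatives the adjusted p lay between 0.0416 and 1.00, under 0.05 with DESeq2 (0.0488), without SF4 (0.0457) and without SF1 (0.0416). Without SF1 the log2 fold change shrank to −0.33. The related factors *PLAG1* and *PLAGL2* had adjusted p of 0.804 and 0.0892.

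*PEG3*, a large zinc finger protein read from the paternal copy, had 352, 170, 282 and 474 counts in IMF1 to IMF4 and 226, 251, 186 and 354 counts in SF1 to SF4. The groups overlapped over most of their range, and IMF2 was the lowest of all 8 clones at 5.56 CPM while IMF4 was the highest at 22.6 CPM. This gave a log2 fold change of 0.17 (SE 0.42, 95% interval −0.79 to 1.14, adjusted p = 0.805), so a difference of up to about the fold threshold in favour of IMF is not excluded by the interval. It became −0.13 without IMF4 and −0.03 without SF3.

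*PEG10*, a retrotransposon-derived gene that codes for a capsid-like protein, carried the widest range among SF clones after *H19*. Its counts were 1089, 1701, 1358 and 1095 in IMF1 to IMF4 and 6512, 848, 1248 and 2104 in SF1 to SF4. SF1 at 334 CPM and SF4 at 116 CPM were above all IMF clones (52.1 to 61.6 CPM), while SF2 and SF3 were below all of them. The levels were 55.4 ± 4.43 CPM (IMF) against 136 ± 136 (SF) (SD, n = 4), with a log2 fold change of −1.29 (SE 0.60, 95% interval −2.68 to 0.09, adjusted p = 0.156). Without SF1 it was −0.33. Of the pericyte and smooth muscle markers, 3 of 5 measured, *ACTA2* made up most of the summed level, which was 6622, 2241, 1285 and 4309 CPM in SF1 to SF4 and 1064 to 1195 CPM in IMF. *ACTA2* itself was highest in SF1 and SF4 (6491 and 3977 CPM), as *PEG10* was, while *CSPG4* was lowest of the SF clones in SF1. *MYH11* was also highest of the SF clones in SF1 (8.73 CPM, against 1.87 to 2.85 in the others), but it was higher in IMF. Their part in the *PEG10* pattern was not tested.

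*SGCE*, the sarcoglycan gene that lies 267 bases from *PEG10* in RefSeq, had a narrower range over the SF clones. It had 26.2 ± 2.15 CPM in IMF against 35.6 ± 4.46 in SF (SD, n = 4), with a log2 fold change of −0.44 (SE 0.10, adjusted p = 0.0159). Per length, *PEG10* was 2.55-fold above *SGCE* in SF1 and 1.08-fold above it in SF4, and it was 0.381 to 0.762 times the level of *SGCE* in the other 6 clones. With total counts alone the adjusted p of *SGCE* was 0.108. *PON3*, a paraoxonase gene of the region, had 2.13 ± 0.255 CPM in IMF against 0.777 ± 0.606 in SF with groups that did not overlap (log2 fold change 1.45, adjusted p = 0.0659), and it was past the threshold with DESeq2, in both limma-voom fits and without SF2 (adjusted p 0.0179, 0.0212, 0.0271 and 0.0074, within 0.0074 to 0.921 over all alternatives). *TFPI2*, *PON2* and *PPP1R9A* had adjusted p of 0.653, 0.831 and 0.899, and without SF1 that of *TFPI2* was 0.0345 (log2 fold change −0.61).

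*NDN*, necdin of the MAGE family, which restrains growth and is best known from neurons, had 157, 233, 145 and 125 counts in IMF1 to IMF4 and 228, 146, 100 and 129 counts in SF1 to SF4. SF1 was the highest clone at 11.7 CPM, SF3 the lowest at 4.06 CPM, and the IMF clones lay between them. The log2 fold change was −0.12 (SE 0.28, 95% interval −0.77 to 0.53, adjusted p = 0.796), and it turned to 0.17 without SF1, to 0.03 with total counts alone and to 0.03 in both limma-voom fits. *MAGEL2*, another MAGE gene 43.3 kb away, had 106 counts in SF1, 32 in SF4 and between 4 and 20 in the other 6 clones, with a log2 fold change of −1.50 (SE 0.96, adjusted p = 0.294) that became −0.12 without SF1. The deposited length of the row named *MAGEL2*, 4508 bases, is above the 4127 bases of the gene in RefSeq. In the same domain *SNRPN* and *ATP10A* were lower in IMF by adjusted p alone (log2 fold changes of −0.35 and −0.40, adjusted p of 0.0254 and 0.0222). Both calls ended with total counts alone (adjusted p of 0.234 and 0.0827), without IMF1 (0.0677 and 0.0605) and without IMF4 (0.0686 and 0.0596), and that of *SNRPN* also without SF4 (0.0512). *SNURF* and *UBE3A* had adjusted p of 0.202 and 0.855, and without IMF1 *SNURF* was past the threshold (−1.67, adjusted p = 0.0481).

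SF1 was the highest SF clone for 5 of the 6 members, for 11 of the 23 other genes of their domains with at least 1 CPM, and for 30.1% of all genes. In SF1 *PEG10* was 4.80-fold, *PLAGL1* 2.19-fold, *NDN* 1.90-fold and *GRB10* 1.47-fold the mean of the other 3 SF clones, and *PEG3* was 0.878-fold. The plot of fold changes under each way of processing shows how far this clone moves the members.

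**Figure D3:**
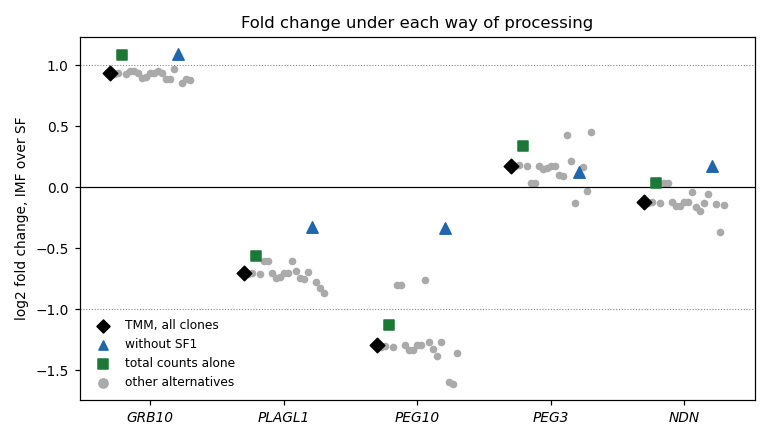
Log2 fold change (IMF over SF) of 5 members in the analysis with TMM and all clones (black diamonds), without SF1 (blue triangles), with total counts alone (green squares) and in the other alternatives (grey points). Leaving out SF1 moves *PEG10* from −1.29 to −0.33 and *PLAGL1* from −0.70 to −0.33, takes *GRB10* to 1.09 and turns *NDN* from −0.12 to 0.17.

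The members varied less between IMF clones than between SF clones, with *PEG3* as the exception. The coefficient of variation (CV) of CPM over the 4 IMF clones was 3.09% for *PLAGL1*, 5.03% for *H19*, 5.64% for *GRB10*, 7.99% for *PEG10* and 11.6% for *NDN*, against 49.5% for *PEG3*. Over the 4 SF clones it was 22.0% for *GRB10*, 38.8% for *PEG3*, 41.7% for *NDN*, 46.7% for *PLAGL1*, 100.4% for *PEG10* and 175% for *H19*. The SF clones were also more uneven over the genome, with a median CV of 13.3% against 6.54% in IMF over the 10720 genes with at least 5 CPM in both groups. *H19* is not among these, with 14 counts or fewer in 3 SF clones. The other 5 members all had a CV above that median in SF, and 3 of the 5 did in IMF. These values are descriptions, with no test of the spread.

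**Figure D4:**
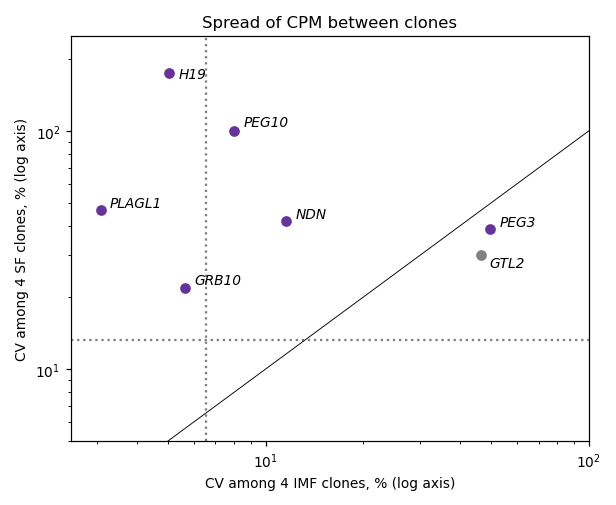
CV of CPM among the 4 IMF clones (x axis, %) and among the 4 SF clones (y axis, %), both on log axes, for the 6 members (purple) and *GTL2* (grey), with the line of equal CV and dotted lines at the medians of 10720 genes (6.54% and 13.3%). *H19*, *PEG10*, *PLAGL1*, *NDN* and *GRB10* lie above the line of equal CV, and *PEG3* and *GTL2* lie below it.

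Levels of different members were compared per length of gene, in TPM from the deposited lengths. In IMF the order was *H19* (2551 ± 287 TPM), *GRB10* (28.5 ± 3.04), *PLAGL1* (16.8 ± 1.34), *PEG10* (14.2 ± 1.89), *NDN* (7.18 ± 1.02) and *PEG3* (2.14 ± 1.02), as SD with n = 4. Of the neighbours in this order, only *PLAGL1* and *PEG10* overlapped in their ranges over clones, and even these stood in the same order in 4 of 4 clones. In SF the order of the TPM means was *PEG10* (33.5 ± 33.6), *PLAGL1* (27.1 ± 12.5), *GRB10* (14.7 ± 3.25), *NDN* (7.67 ± 3.14), *H19* (2.25 ± 3.96) and *PEG3* (1.83 ± 0.572), and every pair of neighbours overlapped. The mean of *PEG10* was carried by SF1 (83.1 TPM, against 11.7 to 25.9 in the other 3 clones), and *PEG10* lay above *PLAGL1* in 2 of the 4 SF clones. *H19* took the first place in IMF and the fifth by the mean in SF, where SF1 carried the mean (8.19 TPM, against 0.0439 to 0.548 in the other 3 clones), and it lay above *PEG3* in 1 of the 4 SF clones.

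A further 55 genes were listed as imprinted, without a check that each is imprinted in cattle. Among the 37 of them tested, 3 were past the threshold and higher in IMF (*IGF2*, *COBL* and *DIRAS3*) and 2 were lower (*IGF2R* and *NAP1L5*). By adjusted p alone 3 were higher and 8 lower, beside 8.82% of all genes past the threshold and 25.8% by adjusted p alone, and the median log2 fold change was −0.04. *IGF2R*, the receptor that removes IGF2 from the cell surface, had 197 ± 3.27 CPM in IMF against 450 ± 53.3 in SF (SD, n = 4), a log2 fold change of −1.19 (SE 0.10, adjusted p = 0.000101). *NAP1L5*, a member of the nucleosome assembly protein family, had 2.75 ± 0.947 and 8.39 ± 3.53 CPM (log2 fold change −1.60, adjusted p = 0.0133). *DIRAS3*, a growth-restraining small GTPase, had 5.18 ± 0.626 and 1.06 ± 0.880 CPM (log2 fold change 2.31, adjusted p = 0.0429), and its adjusted p rose above 0.05 without any single IMF clone and without SF1 or SF2, at 0.0671 to 0.0949. Without SF3 its log2 fold change was 1.86 and without SF4 2.93. Of 23 genes in the members' own domains with at least 1 CPM, the row named *ASCL2* included, 2 were past the threshold, both higher, and by adjusted p alone 2 were higher and 4 lower, shares near those of all genes (8.82% and 25.8%). *COPG2* beside *MEST* was among the lower genes (log2 fold change −0.71, adjusted p = 0.00042). *BLCAP*, which hosts *NNAT* in its intron, had 41.2 ± 0.609 and 43.4 ± 5.40 CPM (adjusted p = 0.587).

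**Figure D5:**
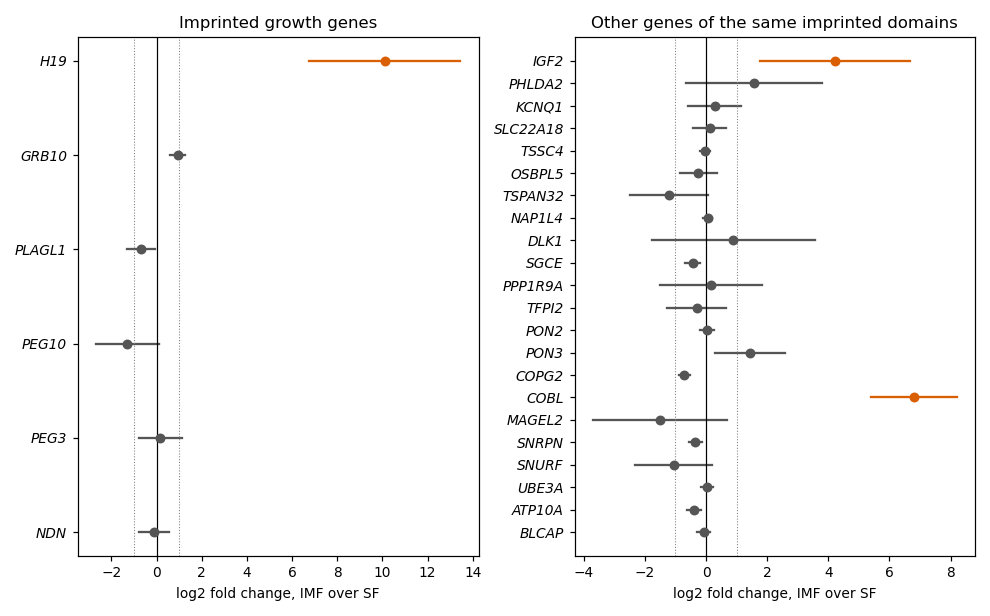
Log2 fold change (IMF over SF) with its 95% interval for the 6 members (left) and for 22 other genes of their imprinted domains with at least 1 CPM (right, the row named *ASCL2* left out), with genes past the threshold in orange and dotted lines at a log2 fold change of 1 in either direction. *H19* at 10.10, *IGF2* at 4.23 and *COBL* at 6.81 (a fitted value that depends on the prior count, as SF had 2 counts in all) stand apart, and the other genes lie between −1.50 and 1.57.

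Of 15 genes that keep or remove methylation at imprinted regions, of 17 listed, 1 was past the threshold and 7 had an adjusted p under 0.05, against 8.82% and 25.8% of all genes. *UHRF1*, which brings DNMT1 to newly copied DNA, had 55.2 ± 3.82 CPM in IMF against 26.4 ± 5.99 in SF (SD, n = 4; log2 fold change 1.06, SE 0.16, adjusted p = 0.00172), and without SF4 it was 0.94, under the fold threshold. By adjusted p alone, *DNMT1* (0.54), *TRIM28* (0.61), *ZNF445* (0.29), *CTCF* (0.30) and *TET2* (0.97) were higher as well, with these log2 fold changes, and *ZFP57* was lower (−0.34). 8 of the 15, *DNMT3A* and *DNMT3B* among them, did not pass. The 8 proliferation markers had a summed level of 816 to 878 CPM in IMF against 468 to 802 in SF. 0 of them were past the threshold by edgeR, 5 had an unadjusted p under 0.05, and 4 (*PCNA*, *MCM2*, *CCNB1* and *BUB1*) were higher by adjusted p alone, against 8.82%, 37.9% and 25.8% of all genes. Their part in the difference was not tested.

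0 of the 12 relatives and partners of the members, of 15 listed, were past the threshold by edgeR, against 8.82% of all genes. By adjusted p alone 2 were higher and 4 lower, against 25.8% of all genes. 7 had an unadjusted p under 0.05, against 37.9% of all genes. *CDKN1A*, the cell cycle inhibitor related to *CDKN1C*, had 134 ± 7.90 CPM in IMF against 103 ± 14.7 in SF (SD, n = 4; log2 fold change 0.38, adjusted p = 0.0358). *RTL6*, a retrotransposon-derived relative of *PEG10*, was higher in IMF (log2 fold change 0.68, adjusted p = 0.00054) and *RTL5* was lower (−0.64, adjusted p = 0.0323). *MAGED2*, a relative of *NDN*, was lower by −0.26 (adjusted p = 0.0443). *ATP2A2*, the calcium pump listed with them, was lower by adjusted p (−0.77, adjusted p = 0.00194).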

How the data were processed

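RNA-seq of 8 clones was analysed, 4 IMF and 4 SF, grouped by the sample labels. After trimming with Trimmomatic 0.39 and alignment to ARS-UCD2.0, the authors counted reads per gene with featureCounts 2.0.2 and deposited the raw counts. The paper names HISAT2 and a non-stranded kit, whereas the labels name STAR 2.7.11a and a dUTP protocol, so overlapping genes on opposite strands may share counts. The annotation release and the handling of multi-mapped reads are not given in the sources used here. The authors also deposited group means as a signal and their own DESeq2 result (log2 fold change, test statistic as a score, p-value), and none of these was used. Gene length, deposited in bases, gave TPM.

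1 row without a gene name (0.0148% to 0.0209% of counts) was left out, and 17 names had been turned into dates. 14422 of 18871 names matched RefSeq (ARS-UCD2.0), which gave the positions. No sequences were used here. The test was the two-sided quasi-likelihood test of edgeR 4.0.16 (R 4.3.3) after TMM scaling, over genes summing to 20 counts or more. The edgeR prior count was 0.125. Alternatives were other scalings, filters, a prior count of 2, DESeq2 1.42.0, limma-voom (limma 3.58.1), robust dispersion, glmTreat, a block on the clone number, and each clone left out in turn. The tests were tried on simulated counts. Counts of paired clones differed by a median chi-square per gene of 1.38 to 4.54 among IMF and 3.62 to 11.6 among SF clones, and none was treated as a repeat of another library. The floor of 3 counts corresponds to 0.0981 to 0.165 CPM and covers counting error only.

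The members and lists were chosen with earlier results of these data known. Named genes are every member, the genes past the threshold in each list, the genes of the members' domains with at least 1 CPM, and the 3 nearest profiles of a member past the threshold. Other genes were named after their values were seen.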

Additional observations from a re-analysis of the deposited data

Results flagged for a closer look

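Each group of 4 clones was checked for a clone far from the other 3, in the 6 members, *GTL2* and the other genes of their domains. Of 60 groups checked by Dixon's ratio, 4 were above its 95% critical value, and chance alone gives about 1 in 20. *H19* in SF1, at 10.4 CPM, was far above the other SF clones (0.0501 to 0.771 CPM). *IGF2* in SF1, at 5.08 CPM, was likewise far above the other SF clones (0 to 0.200 CPM), so both genes of this pair were set apart in the same clone, without reaching the IMF level. *PON2*, near *PEG10*, was lowest in SF1 at 25.6 CPM, against 33.0 to 33.5 CPM in the other SF clones. *UBE3A*, in the region of *NDN*, was lowest in IMF4 at 55.2 CPM, against 64.5 to 64.9 CPM in the other IMF clones. *PEG10* in SF1, at 334 CPM against 42.4 to 116 CPM, did not pass this check.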

How the results depend on the processing

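*H19* stayed past the threshold in all 20 alternatives, with log2 fold changes of 9.66 to 13.08. The count of members past the threshold was 1, and it was 2 with total counts alone and between 1 and 2 on leaving out a clone, as *GRB10* joined without SF1. The 5 further imprinted genes past the threshold became 1 with glmTreat, which tests against a fold of 2, 3 with the replicate number as a block, and 3 to 6 on leaving out a clone. The 1 maintenance gene became 2 with total counts alone, 0 with glmTreat and 0 to 2 on leaving out a clone. Over all genes, 1618 calls became 631 with glmTreat and 1332 to 1643 on leaving out a clone, and 1996 with DESeq2. Total counts alone raised the share of calls that were higher in IMF from 54.2% to 66.7%. Deviations of same-numbered clones correlated at 0.055 on average (−0.0093 to 0.139), beside −0.018 (−0.105 to 0.109) for clones of different number. These values cannot tell whether same-numbered clones share a steer, and the main test used no pairing. The block on the clone number gave 1489 calls over all genes. With it the adjusted p was 0.0543 for *NAP1L5*, 0.0699 for *DIRAS3*, 0.0760 for *SNRPN* and 0.0587 for *ATP10A*, over 0.05 in each.

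Signs changed only for genes under the threshold, and the cause was not tested. The log2 fold change on leaving out a clone lay between −0.13 and 0.45 for *PEG3*, −0.37 and 0.17 for *NDN*, −0.012 and 0.48 for *GTL2*, −0.017 and 0.51 for *KCNQ1*, −0.076 and 0.0005 for *TSSC4*, −0.45 and 0.12 for *OSBPL5*, −0.071 and 1.30 for *DLK1*, −0.20 and 1.02 for *PPP1R9A*, −0.61 and 0.041 for *TFPI2*, −0.047 and 0.088 for *PON2*, −0.026 and 0.082 for *UBE3A*, and −0.17 and 0.0007 for *BLCAP*. With total counts alone *NDN* was 0.031, *TSSC4* 0.11 and *BLCAP* 0.074. With limma-voom *NDN* was 0.031 and *DLK1* −1.16, and with group weights 0.034 and −1.19. *DLK1* was −0.16 with the replicate block, and *UBE3A* was −0.0048 with no filter and −0.0014 with at least 10 counts in 4 clones.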
